A study of Mus musculus with 64 samples.

Results

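The Egr genes and their Nab corepressors were followed through a bulk RNA sequencing study of psilocybin in the mouse brain. The set holds 6 genes, Egr1, Egr2, Egr3, Egr4, Nab1 and Nab2, out of 55401 in the count table and 18971 that passed the filter on low counts, and all 6 passed it. They were found by gene identifier and symbol. The set was chosen by the measured fall of Egr2 counts from 3 h to 4 weeks, so every difference between the time points is given below as a description without a test. 10-week-old, chow-fed, group-housed male C57BL/6J mice were injected once, intraperitoneally, with psilocybin at 3 mg/kg or with vehicle (isotonic saline), and were killed 3 h or 4 weeks later in the morning. By the paper's general methods, mice also had sham injections of isotonic saline in the days before an experiment. The whole hypothalamus and the prefrontal cortex (PFC, labelled frontal cortex) were taken from each of 32 mice, which gave 8 groups of 8 libraries. No transgene or deletion is named for these mice, and every group was injected. The 4-week mice were older at death and further from the injection than the 3 h mice, and these cannot be told apart. Psilocybin is the precursor of psilocin, an agonist of serotonin receptors that include 5-HT2A.

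The Egr proteins are zinc finger transcription factors that bind GC-rich DNA. They belong to the immediate early genes, whose transcription starts within minutes of neuronal activity or growth factor signalling because the factors that switch them on, such as SRF with its ELK partners and CREB, are already present in the cell. Egr1 is widely used as a marker of recently active neurons, Egr2 is best known for hindbrain patterning and for myelination by Schwann cells, Egr3 also serves the muscle spindle, and Egr4 is the least studied of the family. Nab1 and Nab2 bind Egr1, Egr2 and Egr3 and hold down the genes these occupy, in part through the NuRD chromatin remodelling complex. Nab2 is itself a target of Egr factors in several cell types, which makes a feedback loop.

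On GRCm38, Egr2 (ENSMUSG00000037868) spans chr10:67535475-67542188 on the plus strand and Egr3 (ENSMUSG00000033730) chr14:70077203-70082614 on the plus strand. Egr4 (ENSMUSG00000071341) spans chr6:85511121-85513589 on the minus strand, Nab1 (ENSMUSG00000002881) chr1:52457294-52500679 on the minus strand and Nab2 (ENSMUSG00000025402) chr10:127660918-127668568 on the minus strand. Nab2 is the only member of the 6 that other annotated genes overlap, 3 of them (Stat6, Gm16229 and Nemp1), all on the opposite strand. The libraries were stranded and read pairs had to map to a single strand to be counted. Whether a pair was also assigned by the strand of the gene is not given in the sources used here, so the level of Nab2 is uncertain to that extent.

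RefSeq promoter windows on GRCm38.p6, from 250 bases before to 50 after a transcript start, were on hand for 4 of the 6 genes, with 5 windows for Egr2 and 1 each for Egr4, Nab1 and Nab2. Both strands were searched for the CArG box (the core of the element that SRF binds), the cyclic AMP response element TGACGTCA, its core TGACG that CREB and its relatives recognise, and the Egr sites GCGTGGGCG and GCGGGGGCG. The 200 bases before a start of Egr2 (chr10:67537669-67537868, plus strand, inside an intron of longer transcripts) and before the start of Egr4 (chr6:85513590-85513789, minus strand) are shown because these genes had, respectively, the widest time difference in the PFC and the lowest unadjusted p after psilocybin. Capitals mark the CArG box CCATATATGG, which reads the same on both strands, and the core TGACG or its reverse complement CGTCA.
Egr2 promoter: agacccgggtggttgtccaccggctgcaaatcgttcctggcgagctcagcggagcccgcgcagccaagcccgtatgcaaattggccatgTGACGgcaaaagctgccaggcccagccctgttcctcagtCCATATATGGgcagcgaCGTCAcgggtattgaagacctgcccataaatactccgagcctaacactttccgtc
Egr4 promoter: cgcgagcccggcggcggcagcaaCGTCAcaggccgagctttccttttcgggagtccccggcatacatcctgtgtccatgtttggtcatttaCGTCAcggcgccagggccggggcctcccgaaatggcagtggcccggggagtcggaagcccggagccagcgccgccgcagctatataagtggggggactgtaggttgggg
The Nab1 window carried the Egr sites, and 3 stretches of 30 bases on the minus strand, of which the first and second overlap, at chr1:52500565-52500594, chr1:52500547-52500576 and chr1:52500467-52500496, are shown because Nab1 was the gene whose level differed least between the regions. Capitals mark an Egr site or the core CGTCA.
Nab1 first stretch: gcggcCGCCCACGCcgggatctgCGTCAct
Nab1 second stretch: atctgCGTCActcggccgcGCGTGGGCGgg
Nab1 last stretch: gcggggcgggGCGGGGGCGgcggaggtggc
Among 32851 RefSeq windows of this length, 1.63% held a CArG box, 1.79% TGACGTCA, 20.8% TGACG, 0.612% GCGTGGGCG and 2.91% GCGGGGGCG. A CArG box was found in 4 of the 5 Egr2 windows, some of which overlap. None of these motifs was found in the Nab2 window, and TGACGTCA was in none of the 8. A match here is a match of letters and says nothing of binding.

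Of the 64 libraries, 62 held at least 1000000 counts and were used, 31 in each region, with 8061033 to 70361839 counts and a median of 18287978.5. Left out were hypothalamus vehicle 3 h replicate 2 (211111 counts) and PFC psilocybin 4 weeks replicate 3 (200066 counts), so these groups held 7 libraries. The labelled regions matched their markers. The summed level of 6 markers of cortical excitatory neurons was 1409 to 2046 CPM (counts scaled to the library's total, in units of 1000000) in the PFC and 61.8 to 171 CPM in the hypothalamus, and that of 8 hypothalamic neuron markers was 386 to 2811 CPM in the hypothalamus and 1.25 to 23.0 CPM in the PFC. Psilocybin replicate 5 of the hypothalamus at 4 weeks, with 2811 CPM of the latter against a median of 583 CPM, and PFC psilocybin 3 h replicate 7 had the lowest quality weights of all (limma's estimate of how closely a library follows the fit), 0.0276 and 0.120 against a median of 1.19. Several results are also given without these libraries. In whole tissue, fewer cells of a type and less RNA per cell cannot be told apart.

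Egr1 (ENSMUSG00000038418, chr18:34859823-34864984, plus strand, overlapped by no other annotated gene) was the most abundant Egr transcript of the vehicle PFC at 3 h and was lower in the hypothalamus. In PFC vehicle libraries at 4 weeks it ranged from 73.9 to 198 CPM with a median of 121 CPM (126 ± 40.8, SD, n = 8), against 15.3 to 40.6 CPM with a median of 20.1 CPM (22.6 ± 8.15, n = 8) in the hypothalamus. Every PFC library lay above every hypothalamic one. The fitted log2 fold change of PFC over hypothalamus was 2.48 ± 0.22 (SE), with an edgeR adjusted p of 1.16e-14 (quasi-likelihood test, Benjamini-Hochberg adjustment).

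Egr2 was the scarcest member in both regions. Its PFC vehicle level at 4 weeks was 0.831 to 4.85 CPM with a median of 1.39 CPM (1.75 ± 1.29, n = 8), and its hypothalamic level was 0.130 to 0.741 CPM (0.279 ± 0.195, n = 8). The highest PFC value belonged to replicate 3, and the next highest was 1.77 CPM. All PFC libraries lay above all hypothalamic ones, by a log2 fold change of 2.66 ± 0.38 (edgeR adjusted p = 1.66e-08). The hypothalamic libraries held only 2 to 21 reads of Egr2 each over all 4 groups, so small differences within that region were not detectable at this depth.

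Egr3 set the regions furthest apart. In PFC vehicle libraries at 4 weeks it ranged from 95.2 to 250 CPM with a median of 156 CPM (159 ± 47.2, n = 8), and in the hypothalamus from 2.25 to 12.6 CPM with a median of 3.60 CPM (4.77 ± 3.34, n = 8). No library of one region reached the range of the other. The log2 fold change was 5.10 ± 0.33, or 34.4-fold (edgeR adjusted p = 3.93e-20).

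Egr4 was intermediate in the size of this difference. It ranged from 4.08 to 11.5 CPM with a median of 5.87 CPM (6.46 ± 2.45, n = 8) in PFC vehicle libraries at 4 weeks and from 0.241 to 1.19 CPM with a median of 0.794 CPM (0.793 ± 0.298, n = 8) in hypothalamic ones. The regions did not overlap, and the log2 fold change was 3.01 ± 0.25 (edgeR adjusted p = 5.04e-16).

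The 2 corepressors differed from each other. Nab2 followed the Egr genes, at 14.2 to 23.1 CPM with a median of 16.2 CPM (17.3 ± 3.29, n = 8) in PFC vehicle libraries at 4 weeks against 5.47 to 8.52 CPM with a median of 6.12 CPM (6.47 ± 0.954, n = 8) in the hypothalamus. These ranges did not overlap, and the log2 fold change was 1.43 ± 0.13 (edgeR adjusted p = 2.52e-15). Nab1 was at 25.5 to 41.8 CPM with a median of 31.8 CPM (33.4 ± 6.33, n = 8) in the PFC and 31.8 to 33.9 CPM with a median of 32.7 CPM (32.8 ± 0.752, n = 8) in the hypothalamus. The Nab1 ranges overlapped, with a log2 fold change of 0.01 and a 95% confidence interval from -0.19 to 0.21 (edgeR adjusted p = 0.926).

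Thus 5 of the 6 genes were called higher in the PFC of vehicle mice at 4 weeks and none lower. Among all genes tested, 29.5% were called higher and 25.7% lower, and the median log2 fold change over all genes was 0.04. The same count of 5 was reached in the other 3 conditions, and in each of them the regions did not overlap for the Egr genes and Nab2. The log2 fold changes of vehicle mice at 3 h were 2.98 for Egr1, 4.25 for Egr2, 4.74 for Egr3, 3.08 for Egr4, 1.46 for Nab2 and -0.11 for Nab1, with 29.1% of all genes called higher. In psilocybin mice at 4 weeks they were 2.29, 2.36, 4.98, 2.47, 1.26 and 0.10 in the same order, with 28.6% of genes called higher. In psilocybin mice at 3 h they were 3.13, 4.44, 5.31, 4.26, 1.52 and 0.04, with 29.5% called higher. Nab1 was called in none of the 4 (lowest adjusted p 0.364 in edgeR). The PFC value of Egr2 at 3 h is part of the drop that chose the set, so its regional differences are not independent of that choice. Region and extraction pool cannot be told apart, because hypothalamus and PFC were extracted in separate pools.

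**Figure D1:**
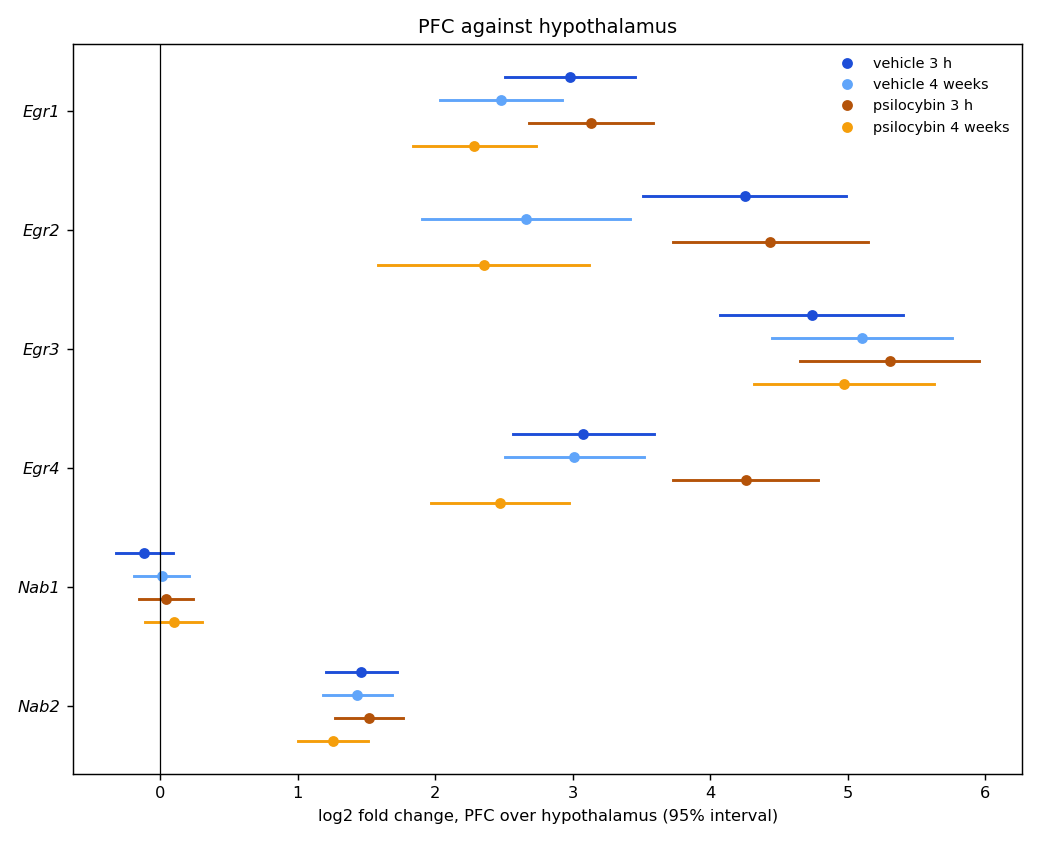
Log2 fold change of PFC over hypothalamus (horizontal axis) for each gene in the 4 conditions, with 95% confidence intervals from the edgeR fit. Egr3 lay furthest from 0, between 4.74 and 5.31, Nab2 lay between 1.26 and 1.52, and all 4 intervals of Nab1 covered 0.

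To compare levels between genes, counts were divided by exonic length (RPKM, CPM per kilobase of exon). In PFC vehicle mice at 4 weeks Egr3 stood at 36.2 ± 10.7 RPKM and Egr1 at 28.1 ± 9.09 RPKM, which differed by less than the larger SD. Nab1 (8.14 RPKM), Nab2 (5.88), Egr4 (3.01) and Egr2 (0.516) followed, each step being larger than the SD. In the hypothalamus of the same mice the order began with Nab1 at 8.00 ± 0.183 RPKM, followed by Egr1 at 5.05 ± 1.82 RPKM, Nab2 at 2.20, Egr3 at 1.08, Egr4 at 0.369 and Egr2 at 0.0821. There the step from Egr3 to Egr4 was within the SD and the others were beyond it. In vehicle PFC at 3 h Egr1 led with 63.0 ± 11.2 RPKM, ahead of Egr3 at 45.6 ± 9.36 RPKM by more than the SD. Across the 8 groups, the 4 PFC groups ranked above the 4 hypothalamic ones for each Egr gene and for Nab2. The groups of Nab1, from 7.42 to 9.13 RPKM, did not differ from their neighbours in rank beyond the SD.

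**Figure D2:**
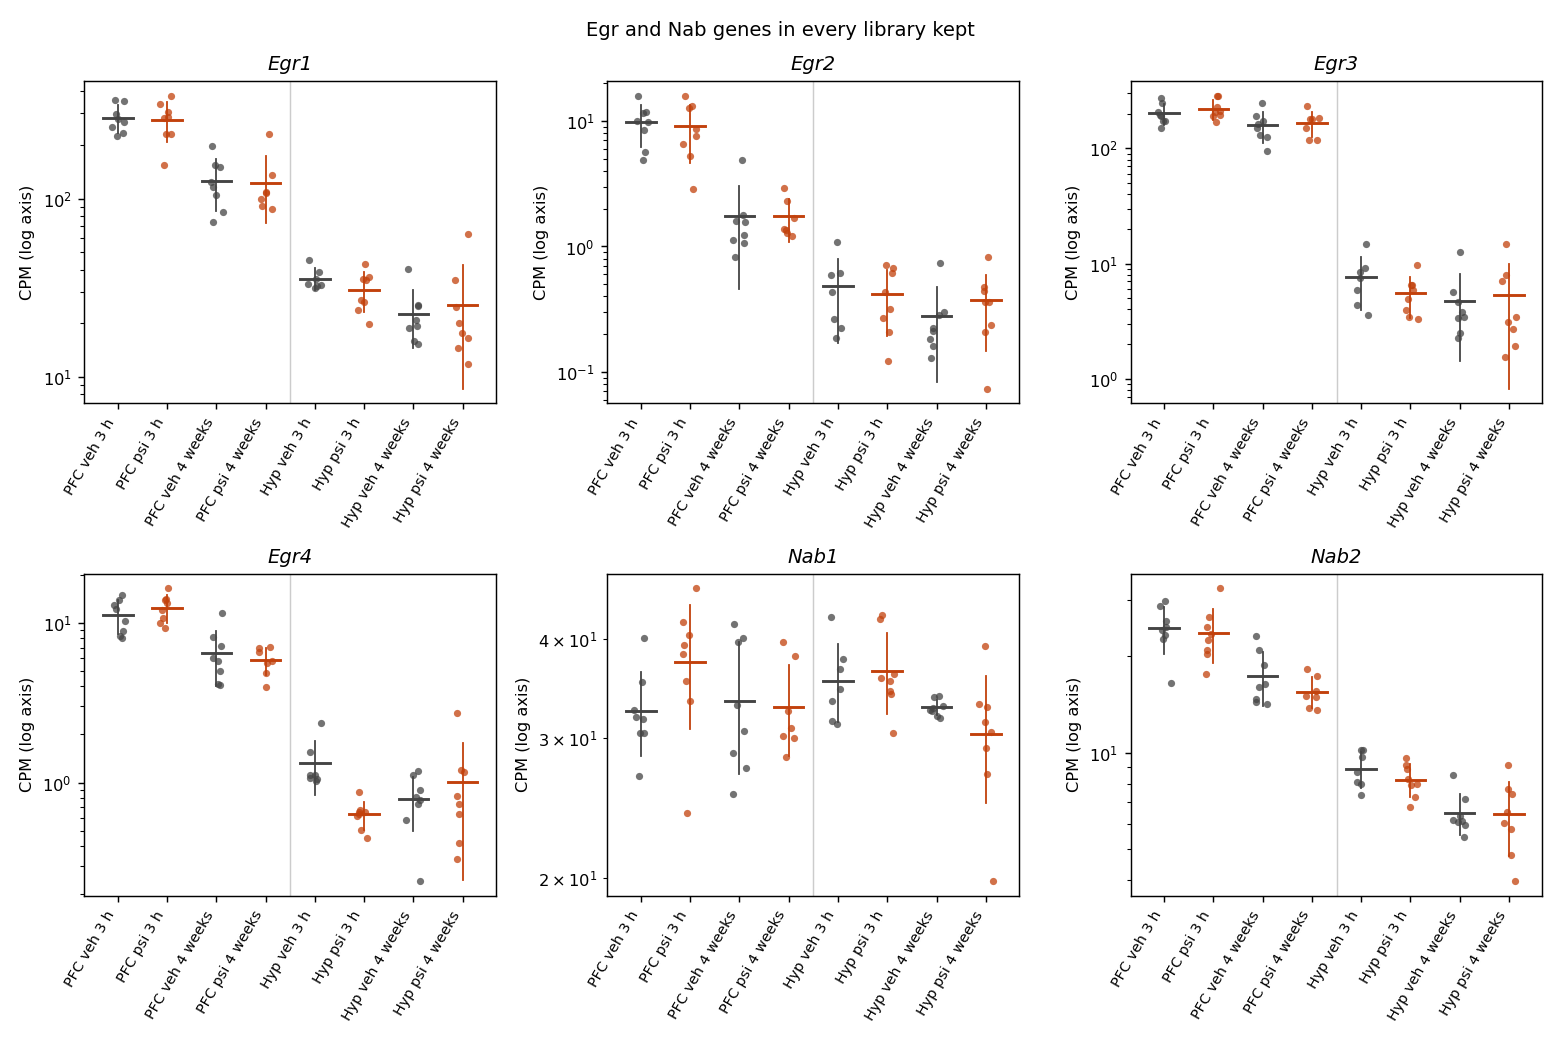
Level of each gene in CPM (log axis) in every library of the 8 groups, PFC on the left and hypothalamus on the right of each panel, vehicle in grey and psilocybin in orange. The line is the group mean and the bar ± SD. The 6 panels show the PFC above the hypothalamus for the Egr genes and Nab2, the level Nab1, and in the PFC the fall of Egr1 and Egr2 from 3 h to 4 weeks.

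Psilocybin was compared with vehicle within each region and time point, which asks whether the drug moved these genes acutely or lastingly. Both arms were injected, so the effect of the injection itself was not compared. None of the 6 genes was called in any of the 4 comparisons by edgeR, by DESeq2 or by voom with quality weights in limma. The share of all genes that edgeR called was 0.0105% (2 genes) in the PFC at 3 h and 0% in each of the PFC at 4 weeks, the hypothalamus at 3 h and the hypothalamus at 4 weeks. DESeq2 called 9, 19, 0 and 13 genes in the same order, and voom 1232, 0, 0 and 0. At an unadjusted p under 0.05 in edgeR, 1371, 456, 337 and 1823 genes passed in the same order, and of the members 1, 0, 1 and 0.

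In the PFC at 3 h Egr1 was at 223 to 357 CPM with a median of 275 CPM after vehicle (283 ± 50.3, n = 8) and at 155 to 377 CPM with a median of 285 CPM after psilocybin (276 ± 69.8, n = 8). Egr2 was at 4.85 to 15.9 CPM with a median of 9.91 CPM after vehicle (9.76 ± 3.55) and at 2.86 to 15.7 CPM with a median of 8.10 CPM after psilocybin (9.06 ± 4.40). The groups overlapped widely, and the lowest psilocybin value of both genes came from replicate 7, the library of low quality weight. The log2 fold changes were -0.07 (95% interval -0.48 to 0.34) for Egr1 and -0.08 (-0.64 to 0.48) for Egr2. Without replicate 7 they were 0.0023 and 0.04. Both intervals covered 0.

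Egr3 and Egr4 in the PFC at 3 h also overlapped between treatments. Egr3 was at 149 to 274 CPM with a median of 191 CPM after vehicle (201 ± 41.2) and at 168 to 287 CPM with a median of 210 CPM after psilocybin (221 ± 43.0). Egr4 was at 8.06 to 15.0 CPM with a median of 11.2 CPM after vehicle (11.2 ± 2.69) and at 9.29 to 16.4 CPM with a median of 12.7 CPM after psilocybin (12.5 ± 2.43). Their log2 fold changes were 0.12 (-0.41 to 0.64) and 0.15 (-0.27 to 0.58).

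Of the corepressors, Nab1 had the one unadjusted p under 0.05 in the PFC at 3 h. It was at 26.9 to 40.2 CPM with a median of 31.8 CPM after vehicle (32.4 ± 3.91) and at 24.1 to 46.3 CPM with a median of 38.8 CPM after psilocybin (37.4 ± 6.67). Replicate 7 was the lowest psilocybin library, and the groups overlapped. The log2 fold change was 0.21 (0.0081 to 0.41), with an adjusted p of 0.687 in edgeR. Without replicate 7 it was 0.29 (edgeR adjusted p = 0.168). Over the alternative settings it ran from 0.20 to 0.29, with a lowest adjusted p of 0.0544 in voom with limma. In the same libraries the summed level of 6 Schwann cell markers was 11.3 to 21.6 CPM with a median of 16.5 CPM after vehicle and 11.5 to 30.5 CPM with a median of 23.2 CPM after psilocybin, where replicate 7 was again the lowest (next 18.8 CPM). Of these markers Foxd3 was at 0 in both groups and Pmp2 in the psilocybin group. The sum of 6 oligodendrocyte markers, none at 0, was 2868 to 6741 CPM with a median of 3428 CPM after vehicle and 3320.2 to 5895 CPM with a median of 4198 CPM after psilocybin. Other marker sums moved either way, with overlap. That of 6 excitatory cortical neuron markers had a median of 1881.9 CPM after vehicle and 1647.5 CPM after psilocybin. Endothelial markers had medians of 185.8 and 173.8 CPM in the same order, and thalamic neuron markers 94.2 and 109.9 CPM. Replicate 7 was the highest psilocybin library for markers of meninges and fibroblasts (356.3 CPM) and the second highest for the excitatory ones (1952 CPM). The part of these sums in the Nab1 result was not tested. Nab2 was at 16.5 to 29.8 CPM with a median of 24.4 CPM after vehicle and at 17.6 to 32.5 CPM with a median of 22.9 CPM after psilocybin, a log2 fold change of -0.05 (-0.29 to 0.18).

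In the PFC at 4 weeks all 6 log2 fold changes lay between -0.16 and 0.09. The widest interval was that of Egr2, at 0.03 (-0.62 to 0.68), for which vehicle libraries had a median of 1.39 CPM and psilocybin libraries 1.38 CPM (1.21 to 2.94). Without vehicle replicate 3 it was 0.41. The narrowest was that of Nab1, at -0.02 (-0.23 to 0.18). Nab2 was at 13.6 to 18.2 CPM after psilocybin with a median of 15.0 CPM (15.5 ± 1.74, n = 7), overlapping the lower part of the vehicle range given above, with a log2 fold change of -0.16 (-0.41 to 0.08). It was -0.08 without vehicle replicate 3, the highest library of its group, and -0.05 in voom with limma.

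In the hypothalamus at 3 h Egr4 was lower after psilocybin in every library, though without a call. Vehicle libraries were at 1.03 to 2.36 CPM with a median of 1.11 CPM (1.33 ± 0.492, n = 7), from 16 to 58 reads each. Psilocybin libraries were at 0.449 to 0.875 CPM with a median of 0.647 CPM (0.634 ± 0.127, n = 8), from 5 to 21 reads each. The groups did not overlap, as was the case in the same direction for 9 of all genes tested (0.0474%). The log2 fold change was -1.03 ± 0.28 (-1.59 to -0.47), or 2.04-fold lower. Its p-value had rank 2 among 18971 genes, and its edgeR adjusted p was 1, as was that of every gene in this comparison. Over the alternative settings the log2 fold change ran from -1.04 to -0.83 and the adjusted p from 0.776 to 1.

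The summed level of 7 striatal neuron markers, none of them at 0, also had a lower median after psilocybin in these hypothalamic libraries, with overlap. It was 168 to 517 CPM with a median of 271 CPM after vehicle and 150 to 285 CPM with a median of 180 CPM after psilocybin. Vehicle replicate 6 had both the highest sum, 517 CPM, and the highest Egr4 level, 2.36 CPM, against 1.55 CPM in the next library. Within the groups the order of the libraries differed otherwise. Vehicle replicate 4 had the second highest vehicle sum (301 CPM) and the lowest vehicle Egr4 level (1.03 CPM), and the highest psilocybin Egr4 level (0.875 CPM) was in replicate 4, with a sum of 173 CPM. Without the library of the highest striatal sum in each of the 8 groups, a setting chosen after seeing the data, the log2 fold change was -0.83 (adjusted p = 1 in edgeR). Of the other 4 neuron marker sums in these libraries, all with overlap and with no marker at 0, 2 had a lower and 2 a higher median after psilocybin. That of 6 GABAergic neuron markers was 1038 to 1366 CPM with a median of 1252 CPM after vehicle and 892 to 1191 CPM with a median of 1150.1 CPM after psilocybin. That of 8 hypothalamic neuron markers was 499 to 882 CPM with a median of 619 CPM after vehicle and 386 to 858 CPM with a median of 489 CPM after psilocybin. Excitatory cortical neuron markers summed to 67.4 to 150.5 CPM with a median of 86.3 CPM after vehicle and 70.1 to 135 CPM with a median of 107 CPM after psilocybin, and thalamic neuron markers to 213 to 573 CPM with a median of 368 CPM and 167 to 548 CPM with a median of 488 CPM. The part of these sums in the Egr4 result was not tested.

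**Figure D3:**
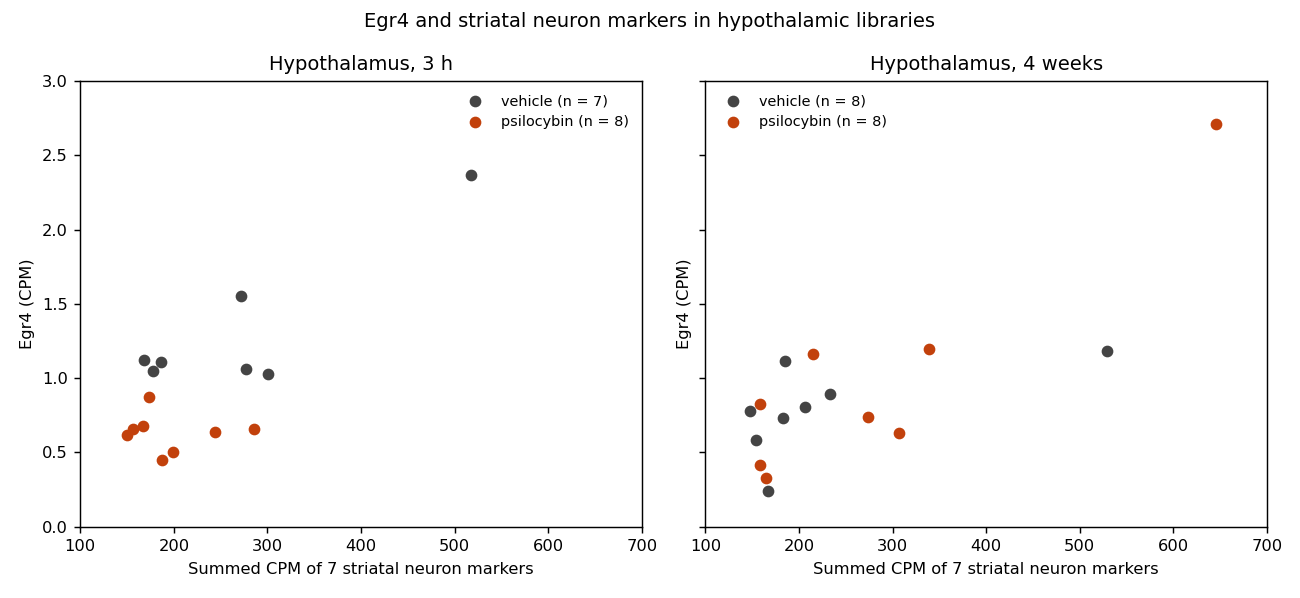
Egr4 level (CPM) against the summed level of 7 striatal neuron markers (CPM) in hypothalamic libraries at 3 h and 4 weeks, vehicle in grey and psilocybin in orange. At 3 h all vehicle libraries lie at 1.03 CPM of Egr4 or above and all psilocybin libraries at 0.875 CPM or below, and the libraries at the right, with striatal sums of 517 to 646 CPM, include the highest Egr4 level of each time.

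The other 5 genes overlapped between treatments in the hypothalamus at 3 h. Egr1 was at 31.7 to 45.4 CPM with a median of 33.2 CPM after vehicle and 19.7 to 43.1 CPM with a median of 31.0 CPM after psilocybin, a log2 fold change of -0.22 (-0.66 to 0.22). Egr3 was at 3.58 to 14.6 CPM with a median of 7.55 CPM after vehicle and 3.33 to 9.76 CPM with a median of 5.35 CPM after psilocybin, a log2 fold change of -0.45 (-1.09 to 0.19). Over the alternative settings the Egr3 estimate ran from -0.48 to -0.24. Egr2 had a log2 fold change of -0.27 (-1.09 to 0.55), Nab1 0.05 and Nab2 -0.11. The estimates of all 4 Egr genes were thus negative, and only the interval of Egr4 left out 0.

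In the hypothalamus at 4 weeks the estimates of the 4 Egr genes were positive, and every interval covered 0. Egr4 was at 0.241 to 1.19 CPM after vehicle and at 0.330 to 2.71 CPM with a median of 0.781 CPM after psilocybin (1.00 ± 0.758, n = 8), a log2 fold change of 0.39 (-0.16 to 0.93). Without the library of the highest striatal sum in each group, psilocybin replicate 8 among them, it was 0.04 and that of Egr3 0.03. Without psilocybin replicate 5 the log2 fold changes of Egr1, Egr2, Egr3 and Egr4 were 0.29, 0.53, 0.42 and 0.48, and in voom with limma they were 0.26, 0.57, 0.57 and 0.55, with none called. Egr1, Egr2 and Egr3 had log2 fold changes of 0.18, 0.34 (-0.57 to 1.24) and 0.22, and Nab1 and Nab2 of -0.11 and 0.01. Over the alternative settings Nab1 ran from -0.15 to -0.03 and Nab2 from -0.07 to 0.05. Psilocybin replicate 5 was the lowest Nab1 library of its group (19.8 CPM, next 27.1 CPM).

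**Figure D4:**
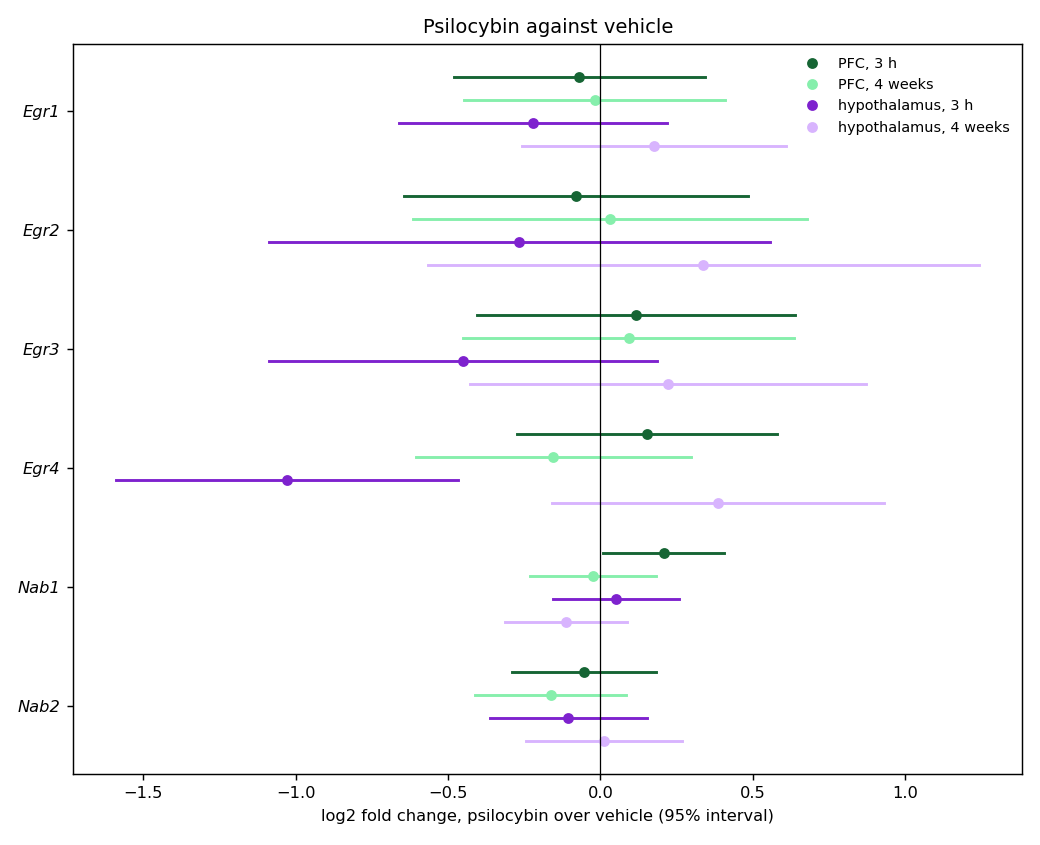
Log2 fold change of psilocybin over vehicle (horizontal axis) for each gene in the 4 comparisons, with unadjusted 95% confidence intervals from the edgeR fit. The intervals that leave out 0 are those of Egr4 in the hypothalamus at 3 h (-1.59 to -0.47) and Nab1 in the PFC at 3 h (0.0081 to 0.41), and neither gene was called after adjustment.

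Whether the response to psilocybin differed between the regions was tested as an interaction. None of the 6 genes was called at 3 h or at 4 weeks by edgeR, DESeq2 or voom, and the share of all genes that edgeR called was 0% at either time. DESeq2 called 0 genes at 3 h and 64 at 4 weeks, and voom 8 and 0. At an unadjusted p under 0.05 in edgeR, 528 genes passed at 3 h and 1269 at 4 weeks. Egr4 at 3 h was the only member among them, with a PFC response above the hypothalamic one by 1.18 on the log2 scale (0.48 to 1.88), rank 13 by p-value among all genes and an adjusted p of 1 in edgeR. At 4 weeks its difference was -0.54 (-1.25 to 0.16), and -0.15 without the library of the highest striatal sum in each group.

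The difference between 3 h and 4 weeks chose the set and is described here without a test. In the PFC of vehicle mice, Egr2 went from a median of 9.91 CPM at 3 h to 1.39 CPM at 4 weeks, a fitted 5.42-fold (log2 2.44). The lowest library at 3 h and the highest at 4 weeks, replicate 3, both stood at 4.85 CPM, so the groups touched in that library alone. Without it, a setting chosen after seeing the data, the log2 difference was 2.83. After psilocybin, Egr2 went from a median of 8.10 CPM to 1.38 CPM (log2 2.33), with the lowest 3 h library (replicate 7, 2.86 CPM) inside the 4-week range and the next lowest at 5.31 CPM.

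Egr1 went from a median of 275 CPM at 3 h to 121 CPM at 4 weeks in the PFC of vehicle mice (log2 1.20), with no overlap between the groups, and from 285 to 107 CPM after psilocybin (log2 1.15), with overlap. Egr4 went from 11.2 to 5.87 CPM after vehicle (log2 0.78), with overlap, and from 12.7 to 5.81 CPM after psilocybin (log2 1.08), without. Nab2, at log2 0.49 after vehicle and 0.60 after psilocybin, also stood higher at 3 h. Egr3, at 0.36 and 0.39, overlapped between the times after either treatment, and Nab1 was at -0.03 and 0.20. Of all genes tested, 0.322% lay higher at 3 h without overlap in the PFC after vehicle and 0.696% after psilocybin.

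In the hypothalamus of vehicle mice the log2 differences of 3 h over 4 weeks were 0.70 for Egr1, 0.85 for Egr2, 0.73 for Egr3, 0.71 for Egr4, 0.46 for Nab2 and 0.10 for Nab1. After psilocybin they were 0.30, 0.24, 0.05, -0.70, 0.34 and 0.26 in the same order. The value of Egr4 was -0.27 without the library of the highest striatal sum in each group, which at 4 weeks was psilocybin replicate 8 with 2.71 CPM of Egr4 (next 1.19 CPM), and the groups overlapped. That of Egr3 was 0.33 in the same setting and -0.14 without psilocybin replicate 5 at 4 weeks, where that of Egr2 was 0.05. No member was higher at 3 h without overlap in the hypothalamus, where 0.669% of all genes were after vehicle and 0.285% after psilocybin. The response to psilocybin at 3 h minus that at 4 weeks was largest in size for Egr4 in the hypothalamus, at -1.42 on the log2 scale (-0.86 without the libraries of the highest striatal sum), and within -0.11 to 0.31 for all 6 genes in the PFC. The PFC value of Egr2, -0.11, was -0.50 without PFC vehicle replicate 3 at 4 weeks.

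Next, the genes were followed from mouse to mouse inside a group, a question that the difference in time does not enter. The group mean and the extraction pool were taken out of each log2 CPM, and the deviations that remained were correlated over the 31 libraries of a region, for 15 pairs of genes in each. Within a library, genes share its depth, its normalization and the tissue that was cut. Of the 30 relations, 7 passed after adjustment over all 30 (two-sided permutation tests of Pearson's r), 3 in the PFC and 4 in the hypothalamus. With the cage number as a replicate block in place of the pool, 12 passed. That count can be too high, because the permutations do not allow for the added cage terms.

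In the PFC Egr1 varied with Egr2 (r = 0.635, permutation p = 0.00021, adjusted p = 0.0021, rho = 0.568, adjusted p = 0.0121). The relation held without the 2 libraries farthest from the median of Egr1 (r = 0.638) and within both pools (r = 0.495 in cages 1 to 4, n = 15, and 0.783 in cages 5 to 8, n = 16). Without psilocybin replicate 7 at 3 h, which was low in both genes, r was 0.572 (adjusted permutation p = 0.00678), and rho was 0.459 (adjusted permutation p = 0.058). Egr1 also varied with Egr3 (r = 0.603, permutation p = 0.00042, adjusted p = 0.00252, rho = 0.561, adjusted p = 0.0121), with r = 0.480 without the 2 farthest libraries and 0.433 and 0.737 within the pools. With the cage block the latter relation was no longer called (r = 0.338, adjusted p = 0.133). Egr2 and Egr3, each related to Egr1, had an r of only 0.0966 with each other, and of -0.221 to 0.335 over the settings.

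The corepressor Nab2 varied with Egr4 in the PFC (r = 0.662, permutation p = 5e-05, adjusted p = 0.0015, rho = 0.684, adjusted p = 0.0018). This was the largest r of the 30 relations. It was 0.581 without the 2 farthest libraries, 0.751 and 0.621 within the pools, 0.604 with the cage block and 0.691 without the library of the highest striatal sum in each group (n = 27). In the hypothalamus the same pair had r = 0.438 (adjusted permutation p = 0.0526, rho = 0.454), and 0.336 to 0.530 over the settings, with a lowest adjusted permutation p of 0.0143 without psilocybin replicate 5 at 4 weeks. The 2 values of r were not compared by a test.

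In the hypothalamus 3 of the 6 pairs of Egr genes passed by r. Egr1 and Egr2 had an r of 0.489 (permutation p = 0.0047, adjusted p = 0.0235, rho = 0.407, adjusted p = 0.0814), Egr2 and Egr3 of 0.592 (permutation p = 0.0004, adjusted p = 0.00252, rho = 0.548, adjusted p = 0.0143) and Egr3 and Egr4 of 0.610 (permutation p = 0.00017, adjusted p = 0.0021, rho = 0.499, adjusted p = 0.0271). Within the pools r was 0.279 and 0.766, 0.331 and 0.726, and 0.395 and 0.751, each time higher in cages 5 to 8, and without the 2 farthest libraries it was 0.376, 0.444 and 0.456. The other 3 pairs were also positive, with r = 0.378 (rho = 0.405, adjusted permutation p = 0.0814) for Egr1 and Egr4, 0.335 (rho = 0.427, adjusted permutation p = 0.076) for Egr1 and Egr3 and 0.225 for Egr2 and Egr4, and the values of r were not tested against each other. Nab1 and Nab2 ran opposite to each other (r = -0.473, permutation p = 0.00837, adjusted p = 0.0359, rho = -0.332, adjusted p = 0.189), with r = -0.272 without the 2 farthest libraries, so this relation rests in part on them. Without psilocybin replicate 5 at 4 weeks, the library of the lowest quality weight, the r of Nab1 with Nab2 was -0.250 (adjusted p = 0.321), that of Egr1 with Egr2 0.418 (adjusted p = 0.072) and that of Egr2 with Egr3 0.528 (adjusted p = 0.0143).

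In the hypothalamus, the library of the highest striatal marker sum in each group was high in Egr3. Vehicle replicate 6 at 3 h (517 CPM), vehicle replicate 6 at 4 weeks (530 CPM) and psilocybin replicate 8 at 4 weeks (646 CPM) deviated upward in Egr3 by 1.00, 1.52 and 1.77 and in Egr4 by 0.77, 0.53 and 1.50 on the log2 scale. In psilocybin replicate 6 at 3 h (285 CPM) the deviations were 0.82 for Egr3 and -0.03 for Egr4. In Nab1 all 4 libraries lay within -0.07 and 0.18. In the PFC the highest library was replicate 6 in every group, so leaving it out removed a single cage. Its sums there were 675 CPM (psilocybin 3 h), 733 CPM (psilocybin 4 weeks), 601 CPM (vehicle 3 h) and 1680 CPM (vehicle 4 weeks). Without the highest library of each group, 0 of the 4 hypothalamic relations and all 3 PFC relations passed (permutation tests, n = 27 in each region). The r of Egr2 with Egr3 was then 0.393 (adjusted p = 0.182), that of Egr3 with Egr4 0.326 (adjusted p = 0.244), that of Egr1 with Egr2 0.452 (adjusted p = 0.0982) and that of Nab1 with Nab2 -0.512 (adjusted p = 0.0724).

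**Figure D5:**
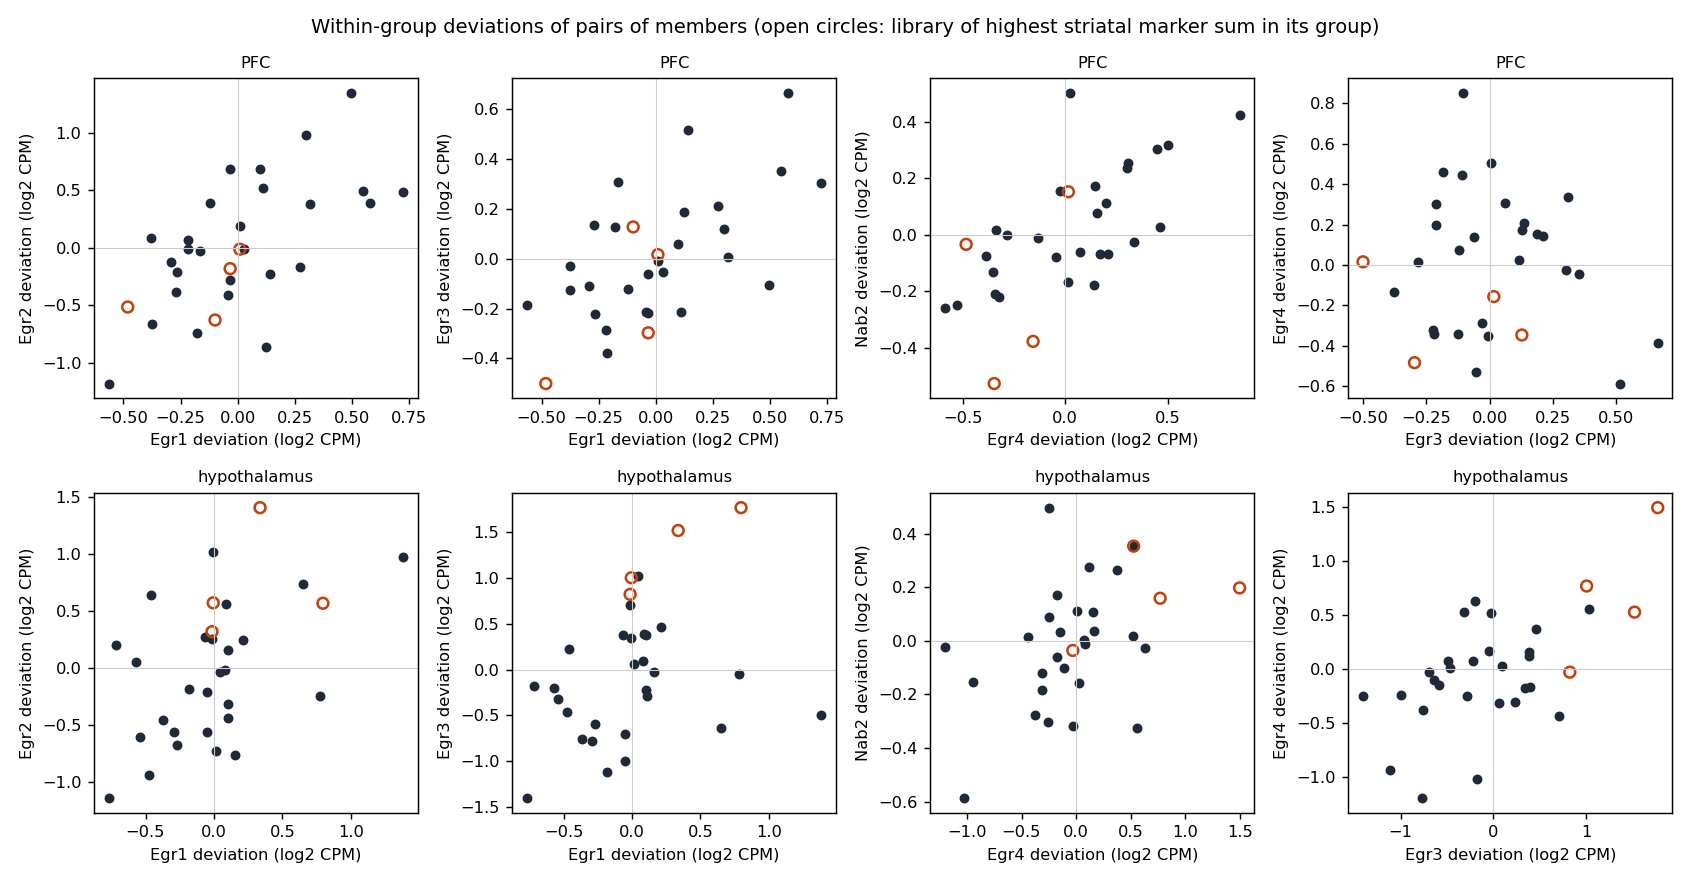
Deviation from the group and pool mean (log2 CPM) of one gene against another for Egr1 with Egr2, Egr1 with Egr3, Egr4 with Nab2 and Egr3 with Egr4, one point per library, PFC above and hypothalamus below. Open circles are the library of the highest striatal marker sum in its group. In the PFC Egr4 and Nab2 rise together (r = 0.662) and Egr3 and Egr4 do not (r = -0.122), whereas in the hypothalamus the points of highest Egr3 and Egr4 are open circles.

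Between the 2 regions of a mouse, deviations could be compared in 30 mice. None of the 6 genes passed after adjustment over the 6 relations. Egr1 came closest, with r = 0.394 (permutation p = 0.0321, adjusted p = 0.192) and rho = 0.313 (permutation p = 0.0929, adjusted p = 0.558). Its r was 0.324 without the 2 mice farthest from the median, 0.421 in cages 1 to 4 (n = 14) and 0.384 in cages 5 to 8 (n = 16). It was 0.320 without PFC psilocybin replicate 7 at 3 h (permutation p = 0.0892, adjusted p = 0.535). Leaving out PFC vehicle replicate 3 at 4 weeks gave 0.307 (permutation p = 0.104, adjusted p = 0.625). Leaving out hypothalamus psilocybin replicate 5 at 4 weeks gave 0.3785 (permutation p = 0.043, adjusted p = 0.258). Leaving out the library of the highest striatal sum in each group gave 0.511 (permutation p = 0.00901, adjusted p = 0.0541). With the cage block Egr1 passed (r = 0.491, permutation p = 0.00629, adjusted p = 0.0377). The permutations do not allow for the cage terms removed from the deviations, so these p-values are likely too small. The r of the other 5 genes lay between -0.186 and 0.130. That of Nab1 differed between the pools, at -0.729 in cages 1 to 4 (n = 14) and 0.160 in cages 5 to 8 (n = 16), with -0.0026 over all 30 mice (rho = -0.211, adjusted permutation p = 0.781). Without the library of the highest striatal sum in each group, rho of Nab1 was -0.539 (n = 25, adjusted permutation p = 0.0375), and r was -0.194 (adjusted permutation p = 0.516).

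The genes whose deviations were most like those of each member were ranked by the lower of the r in the hypothalamus and the r in the PFC, 31 libraries each, over all genes tested. These are descriptions, and libraries share depth and dissection across genes. For Egr1 they were Fos (r = 0.837 in the hypothalamus and 0.740 in the PFC), Nr4a1 (0.807 and 0.594) and Dusp6 (0.573 and 0.700), a subunit of the AP-1 transcription factor, an orphan nuclear receptor and a dual-specificity phosphatase, all immediate early genes. For Egr3 they were Homer1 (0.755 and 0.866), a scaffold of the postsynaptic density with an activity-induced short form, the unnamed gene Gm47155 (0.725 and 0.748) and Kcnv1 (0.722 and 0.738), a modulatory potassium channel subunit. Egr2 was most like Ccnd2 (0.614 and 0.606), a cyclin, Plk2 (0.649 and 0.590), an activity-regulated kinase, and Mfap3 (0.590 and 0.591).

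Egr4 was most like Icam5 (0.676 and 0.706), a cell adhesion molecule of telencephalic dendrites, Psd (0.652 and 0.702) and Agap2 (0.675 and 0.620). Nab2 was most like Numbl (0.681 and 0.592), Dpf1 (0.639 and 0.591), a neuronal subunit of the BAF chromatin remodelling complex, and Ier5l (0.584 and 0.687). Nab1 was most like mt-Co1 (0.880 and 0.829), a mitochondrially encoded subunit of cytochrome c oxidase, Rdx (0.829 and 0.814), which links actin to the membrane, and Aldh6a1 (0.843 and 0.809), an enzyme of valine breakdown. The libraries of lowest quality weight were far low in Nab1. Its deviation was -0.643 in hypothalamus psilocybin replicate 5 at 4 weeks and -0.671 in PFC psilocybin replicate 7 at 3 h. The nearest genes were not ranked without these libraries, which can carry much of the r of Nab1. Each of the 6 genes had its own 3 nearest genes, with no name in common.

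Genes around the family were described by 5 lists. In all 4 comparisons of psilocybin with vehicle and in both interactions, edgeR called none of the genes on any list. The 26 immediate early genes outside the Egr family had a median log2 fold change of -0.0028 in the PFC at 3 h and -0.02 in the hypothalamus at 3 h, against -0.0074 and -0.00081 over all genes. At 4 weeks the median was -0.18 in the PFC, with 5 of 26 positive, and 0.12 in the hypothalamus, with 19 of 26 positive, against -0.0067 and 0.0097 over all genes. List values come from the edgeR fit to all libraries kept and were not computed with single libraries left out.

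Between the regions, in vehicle mice at 4 weeks, 14 of the 26 immediate early genes were called higher in the PFC and 2 lower (median log2 fold change 0.73). Ier5 (log2 1.85), Homer1 (2.81) and Klf10 (2.22) had the smallest p-values of the list. Of 17 regulators of Egr transcription, 11 were called higher and 2 lower (median 0.48), and Elk1 (0.95), a partner of SRF, and Mrtfb (1.22), an SRF coactivator, were among those with the smallest p-values. Of 14 genes of the NuRD complex, 6 were called higher and 3 lower (median 0.10), led by Mta2 (0.41), Gatad2a (-0.42) and Mbd2 (0.31).

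Of 9 other zinc finger factors of GC-rich sites that were tested (Wt1, a further one, did not pass the filter), 5 were called higher and 2 lower in the PFC (median 0.20). Klf13 (1.29), Klf16 (1.34) and Klf9 (1.00) led them. Of 14 genes known as Egr targets that were tested, 10 were called higher and 4 lower (median 0.58). Dlg4 (1.12), which encodes the synaptic scaffold PSD-95, Htr2a (2.17), the 5-HT2A receptor through which psilocin acts, and Syn1 (0.97), a protein of synaptic vesicles, had the smallest p-values. These counts stand beside the 29.5% of all genes called higher and 25.7% called lower in that comparison.

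From 3 h to 4 weeks the immediate early genes were described in the same way as the members, without a test. In the PFC 22 of 26 stood higher at 3 h after vehicle (median log2 difference 0.58) and 25 of 26 after psilocybin (0.75). In the hypothalamus 21 of 26 did so after vehicle (0.19) and 14 of 26 after psilocybin (0.14). The medians over the 6 members were 0.63 and 0.84 in the PFC and 0.71 and 0.25 in the hypothalamus, against -0.0040, 0.0080, 0.0022 and -0.03 over all genes. The Egr targets had medians of 0.07 and 0.17 in the PFC and 0.07 and 0.05 in the hypothalamus, and the regulators, NuRD genes and GC-site factors lay between -0.0049 and 0.14.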

How the data were processed

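Bulk RNA sequencing of 64 libraries from 32 mice was analysed. Per the paper's methods and the submitters' processing notes, the authors prepared stranded mRNA libraries, used STAR 2.7.2b for alignment to GRCm38 and featureCounts 1.6.2 with GENCODE for counting. The deposited table holds raw counts per gene, without normalization. Gene spans are those of GENCODE vM21 with the same identifiers, because the table's start and end covered a part of Egr2, Egr3 and Nab1 only. Of 55401 genes, 55141 matched a symbol.

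Libraries of at least 1000000 counts were kept. The filter on low counts was filterByExpr on the groups (at least 10 counts, total 15), and a robust quasi-likelihood fit with TMM was made in edgeR 4.0.16 (R 4.3.3) over all 8 groups, with extraction pool within region as a covariate and Benjamini-Hochberg adjustment over 18971 genes (threshold 0.05). The paper used voom with quality weights in limma, which was run here as an alternative on all 62 libraries kept (the paper also set aside a further library for wound healing and immune genes), because a count test is the main test for deposited counts. CPM and RPKM were computed from the counts with TMM library sizes, and log2 CPM with a prior count of 2. Relations used 100000 resamples (numpy 2.4.6, scipy 1.17.1). The test was tried on simulated counts.

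The alternatives were DESeq2-type size factors, no filter, no pool, the cage or the mouse as a block, DESeq2 1.42.0, voom with limma 3.58.1 and each doubted library left out. After seeing the data, fits without the library of highest striatal marker sum in each group and without PFC vehicle replicate 3 at 4 weeks were added. The replicate number is the cage in the labels, and libraries of the same mouse share treatment, time and cage. With group means alone removed, same-cage libraries correlated weakly (mean r 0.0806 in the PFC and 0.0723 in the hypothalamus over 45 pairs each, lowest -0.312), as did the 2 regions of 30 mice (0.0854). With the extraction pool removed as well, these means were -0.0415, -0.0236 and 0.0289 in the same order. No 2 libraries of a group were alike within sampling noise (chi-square per degree of freedom at least 3.85). The members and lists were chosen with earlier results of these data known. The text names the 6 members, the 3 genes with the smallest p-values of each list in PFC against hypothalamus (vehicle, 4 weeks), any list gene called after psilocybin (there was none) and the 3 genes most like each member. Some items that this rule or the lists would name are not reported here. P-values measure the spread between single mice, and depth limits the precision for genes of few counts, such as Egr2 and Egr4 in the hypothalamus.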

Additional observations from a re-analysis of the deposited data

Results flagged for a closer look

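Among 48 sets of a gene and a group, 8 held a library set apart from the others of its group by Dixon's criterion. For normally distributed values chance alone gives this in about 1 in 20. CPM can be skewed upward, and the rate for such values was not determined. All 8 were the highest of their group. Egr1 reached 230.0 CPM in PFC psilocybin replicate 2 at 4 weeks (next 136 CPM), 63.1 CPM in hypothalamus psilocybin replicate 3 at 4 weeks (next 35.1 CPM) and 40.6 CPM in hypothalamus vehicle replicate 3 at 4 weeks (next 25.4 CPM). Egr2 reached 4.85 CPM in PFC vehicle replicate 3 at 4 weeks (next 1.77 CPM) and 0.741 CPM in hypothalamus vehicle replicate 6 at 4 weeks (next 0.300 CPM). Egr3 reached 12.6 CPM in the latter library (next 5.65 CPM). Egr4 reached 2.71 CPM in hypothalamus psilocybin replicate 8 at 4 weeks (next 1.19 CPM) and 2.36 CPM in hypothalamus vehicle replicate 6 at 3 h (next 1.55 CPM). The 3 hypothalamic libraries named for Egr3 or Egr4 had the highest striatal marker sum of their group (530, 646 and 517 CPM in the order of the text).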

How the results depend on the processing

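No member's call changed under any alternative run. In the paired fits, with the cage as a replicate block, 0 of 6 members were called after psilocybin, and with the mouse as a block 5 of 6 stayed called higher in the PFC. The cage block moved the relations between members from 7 to 12 and those between regions from 0 to 1, and leaving out the library of the highest striatal sum in each group moved the relations between members to 3. Counts with the cage block can be too high, because the permutations do not allow for the cage terms. The causes were not tested.

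Estimates near 0 changed sign. For psilocybin in the PFC at 3 h, Egr1 and Egr2 were at 0.00229 and 0.0362 without PFC psilocybin replicate 7 and at 0.116 and 0.0620 in voom. With other libraries left out they were down to -0.0700 and -0.0904. In the PFC at 4 weeks, Egr2 was at -0.0183 with no filter, -0.0835 with no pool and -0.0374 without the highest striatal libraries. Egr1 was at 0.0170 with the cage block, 0.0445 in voom and 0.0680 without PFC vehicle replicate 3, where Egr4 was at 0.0181, against down to -0.0208 and -0.157 without other single libraries, and Nab1 was at 0.0167 in voom. In the hypothalamus at 4 weeks, Nab2 was at -0.0168 with no filter, -0.0732 without psilocybin replicate 5 (up to 0.0124 without other single libraries) and -0.0341 in voom. The response of PFC minus hypothalamus at 4 weeks was 0.0454 for Egr3 without the highest striatal libraries and 0.0646 for Egr2 without PFC vehicle replicate 3 (down to -0.510 without other single libraries). Nab1 in PFC against hypothalamus was at -0.0345, -0.0338 and -0.0348 (vehicle, 4 weeks) and at -0.000716, -0.0378 and -0.00143 (psilocybin, 3 h) with DESeq2-type size factors, no filter and DESeq2.

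Counts over all genes moved more. In the PFC at 3 h, 2 genes were called in edgeR, 9 in DESeq2, 9 without PFC psilocybin replicate 7, 6 without hypothalamus psilocybin replicate 5, 1232 in voom with quality weights, and 1 with no filter, with no pool or without the highest striatal libraries. Where edgeR called 0, DESeq2 called 19 in the PFC at 4 weeks, 13 in the hypothalamus at 4 weeks and 64 for the response between regions at 4 weeks, voom called 8 for that response at 3 h, and the fit with no pool called 1 in the PFC at 4 weeks. No Egr or Nab gene was among any of these.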
